A study of Homo sapiens with 10 samples.

Results

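The 10 genes described here are the core of the output side of the Hippo pathway: the coactivators YAP1 and WWTR1 (which encodes TAZ), the DNA-binding partners TEAD1, TEAD2, TEAD3 and TEAD4, the kinases LATS1 and LATS2, and the YAP/TAZ target genes ANKRD1 and AMOTL2. The list is given by gene name and holds 10 of the 58302 genes listed in each deposited table. RNA was sequenced from 3 lines labelled as hepatocellular carcinoma (HCC), to compare cells with altered PSPC1 or PTK6 with mock cells and cells given hepatocyte growth factor (HGF) with untreated cells. The design had 10 libraries, 1 per condition, so no condition had a replicate, no p-value is given, and every difference is a difference between 2 libraries.

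SK-hep1 cells carried a mock control, PSPC1, PSPC1 with the kinase PTK6 (PSPC1/PTK6), the PSPC1 mutant named YF in the labels (PSPC1-Y523F), or that mutant with PTK6 (PSPC1-Y523F/PTK6), and the 4 comparisons with mock share that 1 mock library. Mahlavu cells carried a mock control, the C-terminal part of PSPC1 (PSPC1-CT131) or a PSPC1 construct with a mutated nuclear localization sequence, NLS in the label (Mut-NLS-CT131). Huh-7 cells carried no construct and were untreated or given 10 ng/ml HGF for 48 h. The labels give every construct as overexpressed, the study's methods describe drug-selected stable clones for its animal work, and the number of clones behind each sequenced library is not given in the sources used here.

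As background, the Hippo pathway is a kinase cascade in which MST kinases switch on LATS1 and LATS2, which phosphorylate YAP and TAZ and so keep them in the cytoplasm or send them to degradation. Unphosphorylated YAP and TAZ enter the nucleus and bind TEAD proteins, which supply the contact with DNA and switch on genes such as CCN1, CCN2, ANKRD1 and AMOTL2. AMOTL2 and LATS2 act back on the pathway as brakes, and in the liver the pathway is known for its control of organ size and of hepatocyte identity. The activity of YAP and TAZ is set largely through phosphorylation and location of the proteins, neither of which RNA levels measure.

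TEAD proteins bind the sequence GGAATG, which reads CATTCC on the other strand, and the sites below are shown because ANKRD1, AMOTL2 and the comparison gene CCN2 are targets whose levels the results turn on, while YAP1 holds a site of its own. The promoters came from RefSeq on GRCh38.p14, where 8 of the 10 genes had an entry, and the 250 bases before each listed start were searched on both strands. Each window is 30 bases long, is written 5′ to 3′ on the strand of its gene and has the motif in capitals.
ANKRD1, chr10:90921290-90921319, minus strand: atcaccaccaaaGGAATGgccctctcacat
ANKRD1, chr10:90921198-90921227, minus strand: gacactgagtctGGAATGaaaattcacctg
AMOTL2, chr3:134374499-134374528, minus strand: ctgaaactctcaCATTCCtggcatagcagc
YAP1, chr11:102110273-102110302, plus strand: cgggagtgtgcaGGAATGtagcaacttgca
CCN2, chr6:131951524-131951553, minus strand: ttttcagacggaGGAATGctgagtgtcaag
CCN2, chr6:131951454-131951483, minus strand: gtggggaGGAATGcgaGGAATGtccctgtt

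The ANKRD1 sites lay 220 and 128 bases before the RefSeq start, the nearer one inside the span that the deposited table gives to the gene. CCN2, a secreted matricellular protein, held 3 matches, 169, 104 and 95 bases before its start. AMOTL2 held 1 match, 69 bases before the second of its 2 listed starts, and none before the first. This match also lay inside the span that the deposited table gives to the gene. YAP1 held 1 match, 162 bases before its start. Of the 27305 symbols in the promoter table, 14.3% held at least 1 match before a start, 1.18% held at least 2 and 0.106% held at least 3. No match stood in the searched windows of WWTR1, TEAD2, TEAD3, LATS1 or LATS2 (LATS2 held 1 that began 10 bases after its start, outside the window). TEAD1, TEAD4 and the target CCN1 were not found by symbol among the promoters, so theirs were not searched. A match in these letters is a description of the sequence only.

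On GRCh38, the build of the deposited positions, YAP1 (ENSG00000137693) spans chr11:102110461-102233423 and TEAD1 (ENSG00000187079) lies on the same chromosome at chr11:12674591-12944483. WWTR1 (ENSG00000018408) spans chr3:149517235-149736714 and AMOTL2 (ENSG00000114019) chr3:134355874-134375479. TEAD3 (ENSG00000007866) spans chr6:35473597-35497076 and LATS1 (ENSG00000131023) chr6:149658153-149718256. TEAD2 (ENSG00000074219) is at chr19:49340595-49362457, TEAD4 (ENSG00000197905) at chr12:2959330-3040673, LATS2 (ENSG00000150457) at chr13:20973032-21061547 and ANKRD1 (ENSG00000148677) at chr10:90912096-90921276. The values are per whole gene, so no exon or isoform is told apart.

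Gene counts summed to between 15245935 and 24278662 reads per library, and every member had at least 144 reads in every library. The label HCC was matched by hepatocyte markers in Huh-7 and not in the other lines: 15 of 15 such genes reached 1 FPKM (reads per kilobase of gene length, scaled to library depth) in Huh-7, summing to 36047 to 36475 FPKM, while 1 of 15, SERPINA1, did so in SK-hep1 and Mahlavu, with sums of 16.4 to 42.5 and 8.22 to 10.4 FPKM and ALB at 0. Endothelial markers summed to 2.76 to 3.71 FPKM in SK-hep1, 2.53 to 4.39 FPKM in Mahlavu and 7.19 to 7.27 FPKM in Huh-7, with 2 of 9 at 1 FPKM or more in each line. Fibroblast markers, 4 of 6 of which reached 1 FPKM in each line, summed to 102 to 341 FPKM in SK-hep1 (highest with PSPC1/PTK6, 178 in mock), 39.7 to 55.5 in Mahlavu and 168 to 181 in Huh-7, with DCN under 0.1 FPKM in every library. PSPC1 had no read in SK-hep1 mock, 209 reads in the library labelled PSPC1 and 930 in that labelled PSPC1/PTK6, and with the mutant it had 71 reads without PTK6 and 2539 with it. Mahlavu mock held 1582 PSPC1 reads, while the library labelled PSPC1-CT131 held 899 and that labelled Mut-NLS-CT131 held 632. Neither construct showed as added PSPC1 reads, so what is said of these 2 libraries takes their labels as given. PTK6 had 1060 and 679 reads in the SK-hep1 libraries labelled with PTK6 and 230 to 307 in the other 3.

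YAP1, the coactivator at the end of the cascade, had the smallest ratio of highest to lowest FPKM of the members over the 10 libraries. Between line medians TEAD2 differed less, by at most 1.28-fold, against at most 1.37-fold for YAP1. Its level was 37.1 FPKM in SK-hep1 mock, 30.1 with PSPC1, 31.2 with PSPC1/PTK6, 39.6 with PSPC1-Y523F and 35.5 with PSPC1-Y523F/PTK6. In Mahlavu it was 39 FPKM in mock, 32.3 with PSPC1-CT131 and 36.6 with Mut-NLS-CT131, and in Huh-7 it was 48.7 FPKM untreated and 48.3 FPKM with HGF. Both Huh-7 libraries were higher than all others, and the SK-hep1 and Mahlavu libraries were interleaved.

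WWTR1, which encodes the YAP paralogue TAZ, had lower FPKM than YAP1 in every library. It stood at 11.9 FPKM in SK-hep1 mock, 15.5 with PSPC1, 18.9 with PSPC1/PTK6, 14.1 with PSPC1-Y523F and 12.7 with PSPC1-Y523F/PTK6. In Mahlavu it stood at 24.5 FPKM in mock, 23.4 with PSPC1-CT131 and 33.7 with Mut-NLS-CT131, and in Huh-7 at 24.3 FPKM untreated and 26.8 FPKM with HGF. All 5 SK-hep1 libraries lay below all 5 of the others, and Mahlavu and Huh-7 overlapped. The ratio of YAP1 to WWTR1 FPKM ran from 1.65 to 3.13 in SK-hep1, from 1.09 to 1.59 in Mahlavu and from 1.8 to 2 in Huh-7. A ratio between genes rests on the gene lengths behind the FPKM, which were shorter than the listed lengths for 9 of the 10 members (1327 against 5030 bases for WWTR1). With the listed lengths, an alternative added after the data were seen, the ratio of YAP1 to WWTR1 ran from 3.33 to 6.3 in SK-hep1, 2.19 to 3.2 in Mahlavu and 3.63 to 4.03 in Huh-7, still above 1 in every library.

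**Figure D1:**
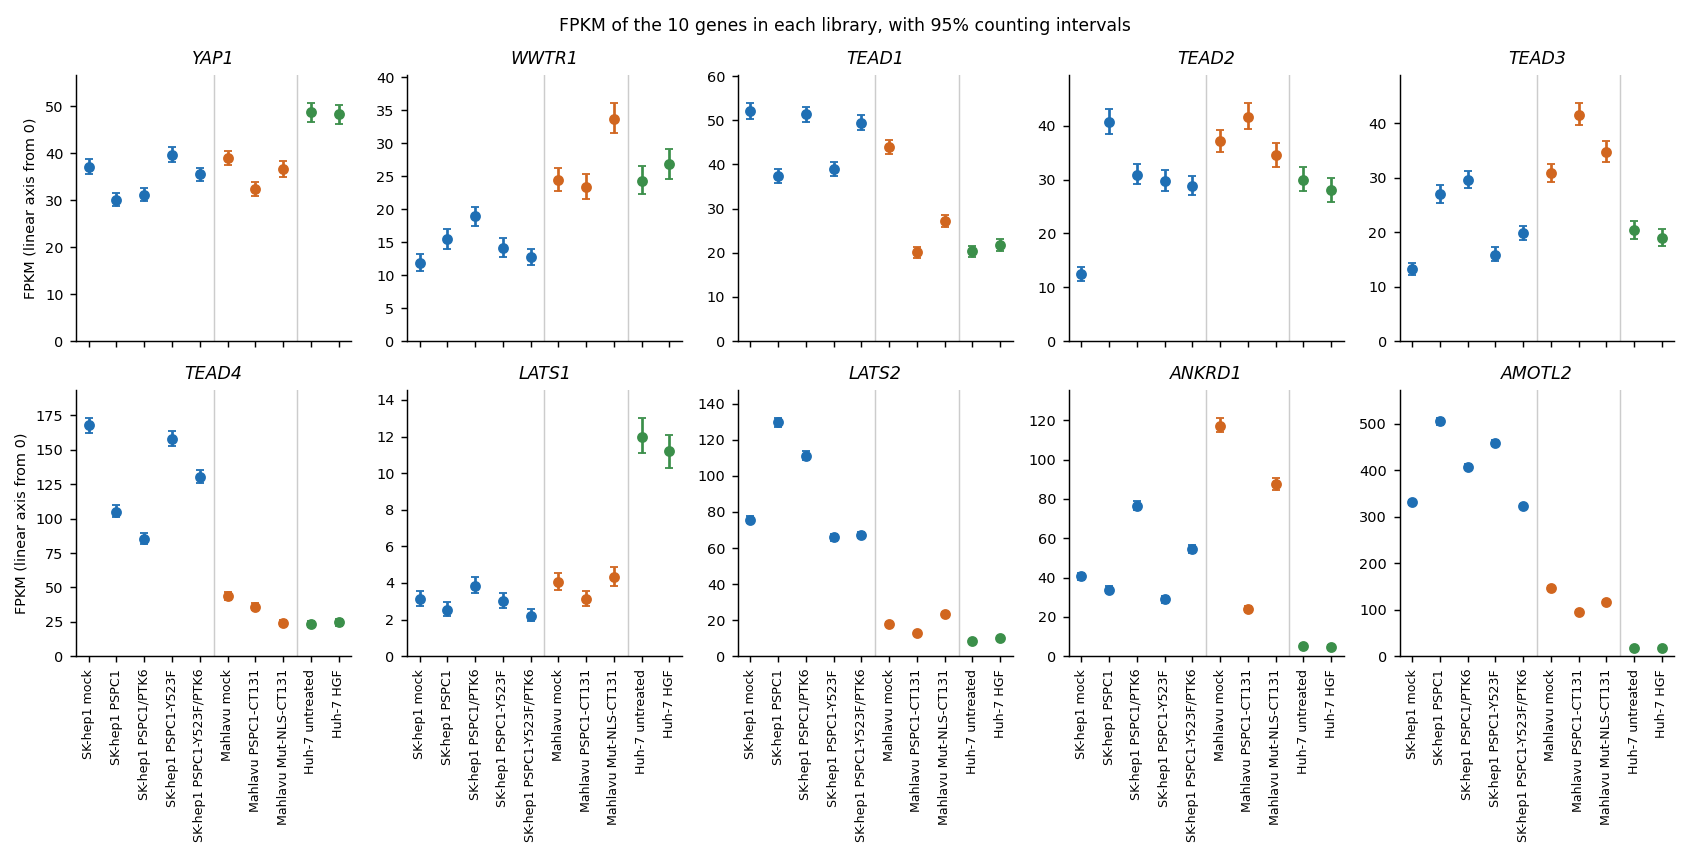
Deposited FPKM of the 10 genes (linear vertical axes from 0) in the 10 libraries, blue for SK-hep1, orange for Mahlavu and green for Huh-7; points are single libraries and bars are 95% Wilson counting intervals. TEAD4, LATS2 and AMOTL2 were highest in all 5 SK-hep1 libraries, LATS1 was highest in both Huh-7 libraries, and TEAD2 was lowest in SK-hep1 mock at 12.4 FPKM.

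The 4 TEAD genes encode the factors through which YAP and TAZ reach DNA, and their mix differed by line. TEAD4 was at 168 FPKM in SK-hep1 mock, 105 with PSPC1, 85.5 with PSPC1/PTK6, 158 with PSPC1-Y523F and 130 with PSPC1-Y523F/PTK6. In Mahlavu TEAD4 was at 43.6 FPKM in mock, 36.1 with PSPC1-CT131 and 23.9 with Mut-NLS-CT131, and in Huh-7 at 23.4 FPKM untreated and 24.7 FPKM with HGF. Each SK-hep1 library was above each library of the other lines, and the Mahlavu and Huh-7 libraries overlapped. TEAD4 made up 68.4% of the summed TEAD FPKM in SK-hep1 mock and 43.3% to 65.2% in the other SK-hep1 libraries, against 19.9% to 28.1% in Mahlavu and 24.9% to 26.5% in Huh-7. With the listed gene lengths these shares were 74.5%, 47.6% to 69.2%, 21.2% to 31.0% and 26.6% to 28.5%.

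TEAD1, the TEAD gene found in most tissues, was at 52.0 FPKM in SK-hep1 mock, 37.3 with PSPC1, 51.4 with PSPC1/PTK6, 38.9 with PSPC1-Y523F and 49.5 with PSPC1-Y523F/PTK6. In Mahlavu it was at 43.9 FPKM in mock, 20.1 with PSPC1-CT131 and 27.1 with Mut-NLS-CT131, and in Huh-7 at 20.3 FPKM untreated and 21.7 FPKM with HGF. The library labelled PSPC1-CT131 stood at the Huh-7 level while Mahlavu mock stood within the SK-hep1 range. TEAD3, known for its expression in placenta, was at 13.2 FPKM in SK-hep1 mock, 27.0 with PSPC1, 29.6 with PSPC1/PTK6, 15.9 with PSPC1-Y523F and 19.9 with PSPC1-Y523F/PTK6. In Mahlavu it was at 30.9, 41.6 and 34.7 FPKM in mock, PSPC1-CT131 and Mut-NLS-CT131, all above the 20.4 and 18.9 FPKM of untreated and HGF-treated Huh-7. The summed TEAD level was 197 to 245 FPKM in SK-hep1, 120 to 156 FPKM in Mahlavu and 93.3 to 94.1 FPKM in Huh-7, so no line's range met another's.

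**Figure D2:**
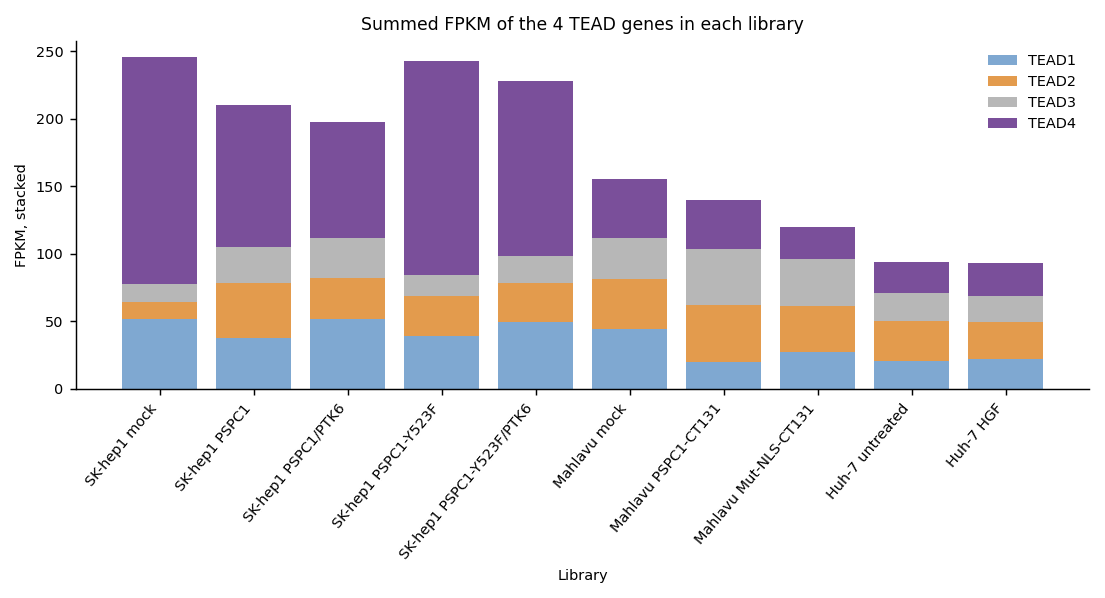
FPKM of TEAD1, TEAD2, TEAD3 and TEAD4 stacked for each library (vertical axis in FPKM from 0). TEAD4 is the largest block in every SK-hep1 library, 43.3% to 68.4% of the sum, while in Huh-7 no gene exceeds the 31.9% of TEAD2 in the untreated library.

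Of the LATS kinases, which phosphorylate YAP and TAZ, LATS2 was higher and LATS1 lower in SK-hep1 than in Huh-7. LATS2 was at 75.8 FPKM in SK-hep1 mock, 130 with PSPC1, 111 with PSPC1/PTK6, 65.9 with PSPC1-Y523F and 67.1 with PSPC1-Y523F/PTK6. In Mahlavu LATS2 was at 17.6 FPKM in mock, 12.7 with PSPC1-CT131 and 23.4 with Mut-NLS-CT131, and in Huh-7 at 8.22 FPKM untreated and 9.89 FPKM with HGF. The 3 lines did not overlap for LATS2. LATS1 was at 2.21 to 3.84 FPKM in SK-hep1 (median 3.03), 3.12 to 4.35 in Mahlavu (median 4.07), and 12 untreated and 11.2 with HGF in Huh-7. Both Huh-7 libraries were above all others for LATS1, and SK-hep1 and Mahlavu overlapped. The ratio of LATS2 to LATS1 FPKM was 21.7 to 50.8 in SK-hep1, 4.05 to 5.38 in Mahlavu and 0.683 to 0.886 in Huh-7. With the listed gene lengths it was 26.9 to 62.8, 5.01 to 6.65, and 0.844 untreated and 1.1 with HGF in Huh-7, so which of the kinases was higher in Huh-7 depends on the length used, while the difference between lines does not. LATS2 lies on chromosome 13, 1.19 megabases from PSPC1.

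The targets spread most. AMOTL2, an angiomotin-family protein that binds YAP, was at 331 FPKM in SK-hep1 mock, 505 with PSPC1, 408 with PSPC1/PTK6, 458 with PSPC1-Y523F and 323 with PSPC1-Y523F/PTK6. In Mahlavu AMOTL2 was at 146 FPKM in mock, 95.5 with PSPC1-CT131 and 117 with Mut-NLS-CT131, and in Huh-7 at 17.3 FPKM untreated and 17.2 FPKM with HGF. The 3 lines again did not overlap, in the order SK-hep1, Mahlavu, Huh-7. ANKRD1, an ankyrin-repeat protein first known from heart muscle, was at 40.6 FPKM in SK-hep1 mock, 33.7 with PSPC1, 76.5 with PSPC1/PTK6, 28.9 with PSPC1-Y523F and 54.4 with PSPC1-Y523F/PTK6. In Mahlavu ANKRD1 was at 117 FPKM in mock, 23.9 with PSPC1-CT131 and 87.7 with Mut-NLS-CT131, and in Huh-7 at 5.28 FPKM untreated and 4.77 FPKM with HGF. Huh-7 was below all other libraries for both targets, and for ANKRD1 the library labelled PSPC1-CT131 lay below every SK-hep1 library while the other 2 Mahlavu libraries lay above every SK-hep1 library.

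These line differences were read against all genes whose mean FPKM over the libraries of both lines reached 1. Of the 10 members, 3 were higher in every SK-hep1 library than in every Mahlavu library (TEAD4, LATS2 and AMOTL2) and 2 were lower (WWTR1 and TEAD3), against 17.1% and 30.4% of all 12912 genes. Between SK-hep1 and Huh-7, 5 were higher in SK-hep1 (TEAD1, TEAD4, LATS2, ANKRD1 and AMOTL2) and 3 lower (YAP1, WWTR1 and LATS1), against 31.2% and 46.4% of 13603 genes. Between Mahlavu and Huh-7, 5 were higher in Mahlavu (TEAD2, TEAD3, LATS2, ANKRD1 and AMOTL2) and 2 lower (YAP1 and LATS1), against 36.4% and 40.5% of 14372 genes. Large shares of all genes separated the lines too, and the members' counts are too few to be set apart from those shares. Where a gap of at least 2-fold between the nearest libraries was asked for, LATS2 and AMOTL2 remained between SK-hep1 and Mahlavu (2 members, 12.6% of all genes), TEAD4, LATS1, LATS2, ANKRD1 and AMOTL2 between SK-hep1 and Huh-7 (5 members, 35.9%), and LATS1, ANKRD1 and AMOTL2 between Mahlavu and Huh-7 (3 members, 32.7%). The line and the way its libraries were made and deposited cannot be told apart, nor, in bulk samples, fewer cells of a kind from less RNA per cell.

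The other YAP/TAZ targets, a list of 19 genes written from general knowledge, were higher in SK-hep1 and Mahlavu than in Huh-7 for the most part. Of the 18 list genes kept against Huh-7, 15 were higher in every SK-hep1 library and 0 lower, where all genes gave 31.2% and 46.4%. For Mahlavu the numbers were 15 and 3, where all genes gave 36.4% and 40.5%. AXL, FJX1 and RBMS3 in the SK-hep1 count, and AXL, FJX1 and FOXF2 in the Mahlavu count, were under 1 FPKM in Huh-7. They passed the filter only through the line where they were high, so their places in the counts are no separate support. The counts were not tested. CCN1, a secreted protein encoded by a classical YAP target, was at 745 to 1581 FPKM in SK-hep1, 339 to 473 in Mahlavu, and 9.15 untreated and 8.40 with HGF in Huh-7. CCN2, the other classical secreted target, went another way: 15.2 to 38.1 FPKM in SK-hep1, 4.77 to 10.8 in Mahlavu, and 40.6 untreated and 37.4 with HGF in Huh-7. Its Huh-7 level overlapped SK-hep1, and CCN2, NT5E (an ectonucleotidase) and DOCK5 (a Rac exchange factor) were the 3 targets above Mahlavu in Huh-7. AXL, a receptor tyrosine kinase, was at 242 to 385 FPKM in SK-hep1, 80.7 to 175 in Mahlavu and 0.192 and 0.18 in Huh-7, and was picked for mention after its values were seen.

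**Figure D3:**
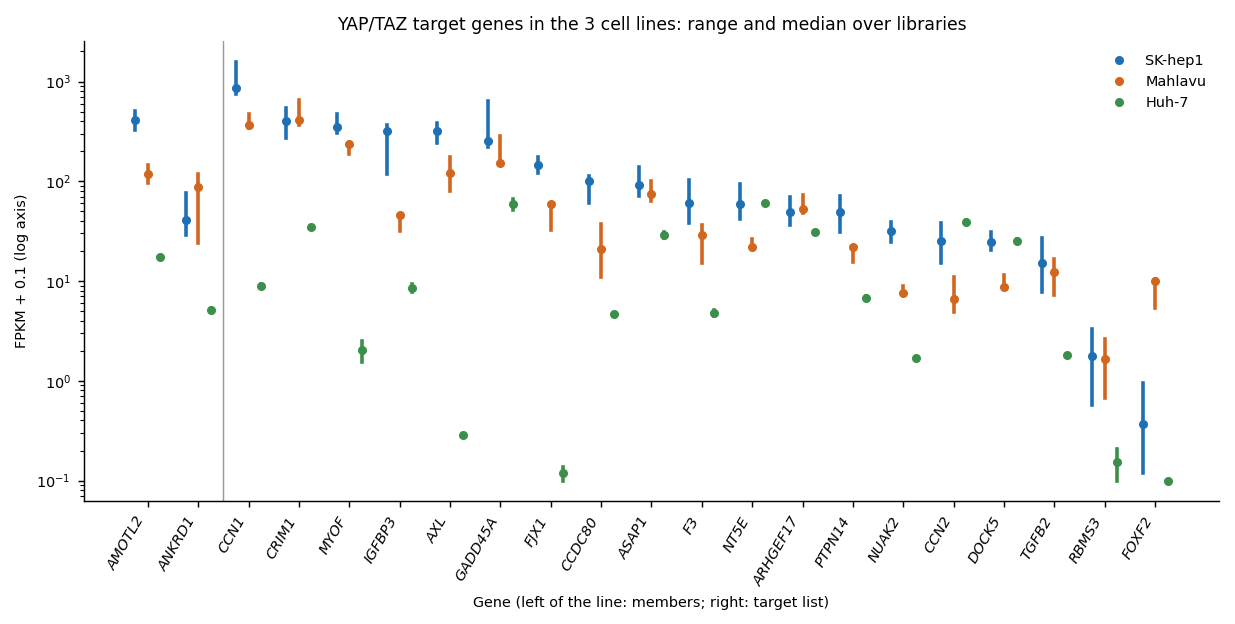
Range (line) and median (point) of deposited FPKM over the libraries of SK-hep1 (n = 5), Mahlavu (n = 3) and Huh-7 (n = 2) for AMOTL2, ANKRD1 and the 19 listed targets, on a log axis after adding 0.1. Huh-7 lies below both other lines for most targets, including CCN1 at 8.40 to 9.15 FPKM, but not for CCN2 at 37.4 to 40.6 FPKM.

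Changes between 2 libraries were taken as the log2 ratio of quantile-normalized FPKM + 1, a scale that understates changes of low genes, and called where they reached 2-fold. In SK-hep1, TEAD2 was the 1 member called in each comparison with mock. TEAD2 is the TEAD gene best known from the early embryo, and its level was 12.4 FPKM in mock (95% Wilson interval 11.2 to 13.7), 40.7 with PSPC1, 30.9 with PSPC1/PTK6, 29.7 with PSPC1-Y523F and 28.8 with PSPC1-Y523F/PTK6. In the other lines it was at 37.1, 41.7 and 34.5 FPKM in Mahlavu mock, PSPC1-CT131 and Mut-NLS-CT131, and at 30 and 28 FPKM in untreated and HGF-treated Huh-7. SK-hep1 mock was the lowest of the 10 libraries, and the other 9 lay between 28 and 41.7 FPKM. TEAD2 rose by 1.62 on the log2 scale with PSPC1, 1.08 with PSPC1/PTK6, 1.20 with PSPC1-Y523F and 1.21 with PSPC1-Y523F/PTK6, which were 388 reads in mock against 908 to 1192. The 4 values rest on the same mock library, so they are not 4 separate observations. With 5 in place of 1 added to each FPKM the change with PSPC1/PTK6 was 0.90 and was not called. CD37 and DKKL1 lie over TEAD2 on the opposite strand. CD37 had 26 reads in SK-hep1 mock and 43 to 150 in the other SK-hep1 libraries, DKKL1 had 13 and 7 to 89, and strand use in the counting is not given in the sources used here, so reads of these genes and of TEAD2 could not be told apart where they overlap.

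With PSPC1, 1 of the 10 members was called higher and 0 lower, against 3.38% and 2.19% of 12410 genes. With PSPC1/PTK6 the counts were 1 and 0, against 5.09% and 3.32% of 12436 genes, with PSPC1-Y523F 1 and 0 against 2.83% and 2.46% of 12382, and with PSPC1-Y523F/PTK6 1 and 0 against 3.44% and 1.59% of 12412. One call in a set of 10 is too few to be set apart from such shares. The median log2 change of the members was 0.10, 0.38, 0.09 and 0.02 in these comparisons, where that of all genes was −0.03, −0.04, −0.01 and −0.04.

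Several members came near 2-fold in SK-hep1 without reaching it. ANKRD1 differed from mock by −0.24 with PSPC1, 0.83 with PSPC1/PTK6, −0.42 with PSPC1-Y523F and 0.46 with PSPC1-Y523F/PTK6. TEAD3 differed from mock by 0.97 with PSPC1 and 0.92 with PSPC1/PTK6, against 0.32 with PSPC1-Y523F and 0.63 with PSPC1-Y523F/PTK6. TEAD4 differed from mock by −0.61, −0.95, −0.09 and −0.32 in the same order. LATS2 differed by 0.78 and 0.56 with PSPC1 and PSPC1/PTK6 and by −0.17 and −0.10 with the mutant constructs. For TEAD3, TEAD4 and LATS2 both libraries with unmutated PSPC1 lay farther from mock than both libraries with PSPC1-Y523F, which was seen after the values were known and was not tested. TEAD3 passed 2-fold in 3 of 10 alternative treatments of the data with PSPC1 (highest 1.02) and in 2 of 10 with PSPC1/PTK6 (highest 1.11), and TEAD4 in 2 of 10 with PSPC1/PTK6 (lowest −1.14). YAP1 differed from mock by −0.37 to 0.10, WWTR1 by 0.22 to 0.40, TEAD1 by −0.42 to 0.01, LATS1 by −0.24 to 0.08 and AMOTL2 by −0.05 to 0.58. The sign of LATS1 in PSPC1/PTK6 and PSPC1-Y523F cells, and of YAP1, TEAD1 and AMOTL2 with PSPC1-Y523F/PTK6, turned under at least 1 alternative.

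The libraries with PTK6 were also set against those with the same PSPC1 construct alone. PSPC1 itself differed within both pairs, at 7.01 FPKM with PSPC1 and 26.4 with PSPC1/PTK6 and at 2.28 FPKM with PSPC1-Y523F and 70.9 with PSPC1-Y523F/PTK6, so the addition of PTK6 and the level of PSPC1 cannot be told apart here. ANKRD1 was at 33.7 FPKM (31.9 to 35.5) with PSPC1 and 76.5 FPKM (74.1 to 79.1) with PSPC1/PTK6, a rise of 1.07 on the log2 scale. It was the 1 member called higher and 0 were called lower, against 3.09% and 1.87% of 12391 genes. The call is a marginal one: the value was 0.95 with TMM-scaled counts and 0.97 once a fit of gene length and GC content was subtracted, and it also missed 2-fold with 5 added. With the mutant, ANKRD1 was at 28.9 FPKM (27.3 to 30.6) with PSPC1-Y523F and 54.4 FPKM (52.4 to 56.6) with PSPC1-Y523F/PTK6, a difference of 0.88 that was not called. There 0 members were called in either direction, against 3.78% of 12398 genes called higher and 2.2% called lower, and with TMM-scaled counts ANKRD1 reached 1.01 and was called. Both libraries with PTK6 were above both without it, and the difference between these 2 comparisons was not tested. The fibroblast marker sum was also higher in the library with PTK6 of each pair. It was 209 FPKM with PSPC1 against 341 with PSPC1/PTK6, and 102 against 172 FPKM for the mutant libraries. COL3A1 made up most of it, at 167 against 287 and at 79.3 against 121 FPKM. COL1A1, PDGFRB and LUM were also higher with PTK6 in each pair. COL1A2 was lower, at 1.15 against 0.72 and at 1.82 against 0.526 FPKM. The part of these markers in the result was not tested.

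The other members differed less within these pairs. Between PSPC1/PTK6 and PSPC1 they ran from −0.54 (TEAD2) to 0.34 (TEAD1), and between the mutant libraries from −0.48 (AMOTL2) to 0.37 (TEAD1). AMOTL2, the other target in the set, did not go with ANKRD1: it differed by −0.23 and −0.48. CCN1 differed by −0.41 and 0.06 and CCN2 by −0.75 and −0.22, so none of these 3 targets was called in either comparison. Median changes of the members were −0.08 and −0.03, against −0.02 and −0.03 for all genes.

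In Mahlavu the change was in ANKRD1. It was at 117 FPKM (114 to 121) in mock, 23.9 FPKM (22.4 to 25.4) where the label was PSPC1-CT131 and 87.7 FPKM (84.7 to 90.7) where it was Mut-NLS-CT131. ANKRD1 fell by 2.21 on the log2 scale against mock, or 4.63-fold on the scale of quantile-normalized FPKM + 1, and by 1.78 (3.43-fold) against Mut-NLS-CT131. Both falls were called under all 10 alternatives, which ran from −2.27 to −1.96 and from −1.85 to −1.57. ANKRD1 was the 1 member called lower, and 0 were higher, against 3.16% lower and 3.17% higher of 12415 genes for the first comparison and 4.59% and 4.23% of 12453 genes for the second. Between Mut-NLS-CT131 and mock ANKRD1 differed by −0.44, and 0 members were called in either direction, against 3.16% of 12425 genes higher and 3.26% lower.

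The values of PSPC1-CT131 moved with the GC content of the genes. Spearman's rho between log2 change and GC content of the longest transcript was 0.57 over 12402 genes against mock and 0.57 over 12440 genes against Mut-NLS-CT131, given as a description over genes of 1 pair of libraries. ANKRD1 has a GC content of 43.3%, and genes of 42% to 46% GC had a median change of −0.16 against mock. After a fit of length and GC content was subtracted, ANKRD1 stood at −2.03 against mock and −1.57 against Mut-NLS-CT131. TEAD1, with 41.3% GC, went from −0.92 to −0.69 against mock, and TEAD3, with 59.8% GC, from 0.64 to 0.29. AMOTL2, with 56.7% GC, went from −0.62 to −0.90. That was the lowest of its 10 alternatives, and the highest was −0.31, with TMM-scaled counts.

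**Figure D4:**
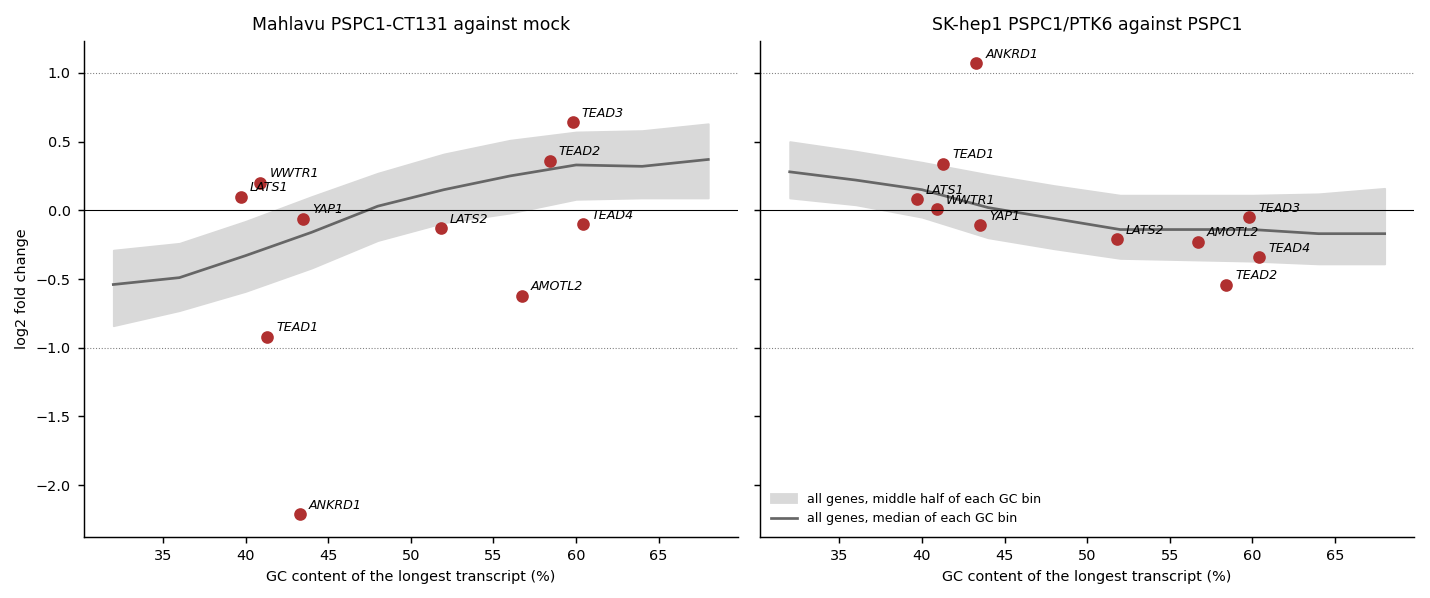
Log2 change against GC content of the longest transcript (%) in 2 comparisons; the grey line and band are the median and interquartile range of all genes in bins of GC content, points are the 10 members, and dotted lines mark 2-fold. In PSPC1-CT131 against mock the median of all genes climbs with GC and ANKRD1, at −2.21, lies far under its bin's −0.16; in PSPC1/PTK6 against PSPC1 the median falls with GC and ANKRD1 lies at 1.07.

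Other members in Mahlavu stayed under 2-fold. TEAD1 differed from mock by −0.92 with PSPC1-CT131 and −0.67 with Mut-NLS-CT131, and the first reached 2-fold on FPKM as deposited and on FPKM scaled to a common sum (lowest −1.11). TEAD4 differed from mock by −0.10 with PSPC1-CT131 and −0.85 with Mut-NLS-CT131, and LATS2 by −0.13 and 0.51. WWTR1 differed by 0.20 and 0.56, and the first of these turned sign under at least 1 alternative, as did YAP1 in both, TEAD4 and LATS1 with PSPC1-CT131 and TEAD2 with Mut-NLS-CT131. The members' median was −0.08 with PSPC1-CT131, −0.05 with Mut-NLS-CT131 and −0.21 between them, against 0.01, 0.00 and 0.01 for all genes.

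In Huh-7, HGF, the ligand of the receptor MET, left every member under 2-fold. The members ran from −0.12 (ANKRD1) to 0.24 (LATS2), with a median of −0.01 beside −0.00 for all genes. None was called higher or lower, against 0.428% and 0.393% of 14262 genes, so few genes of any kind were called. For LATS2, at 8.22 FPKM untreated and 9.89 FPKM with HGF, the ratio of reads per total had a 95% counting interval of 1.05 to 1.38. LATS2 was the 1 member of 10 whose interval left out 1. The share of all genes with such an interval is not given here, so this count is not read as a response to HGF. The interval covers counting error only and not the spread between cultures, which 1 library per condition does not give. CCN1 and CCN2 differed by −0.11 each.

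The rest of the pathway was followed through 3 lists. Of 23 Hippo genes upstream of LATS or beside it (MST and MAP4K kinases, their scaffolds, MOB and NDR genes, and membrane-proximal regulators), 21 were kept in each comparison. At most 1 of them was called in any, where 0.393% to 5.09% of all genes were called in a given direction. Such a count, 1 among 21 genes, is too small to be set apart from such shares. MAP4K3, a kinase that can phosphorylate LATS, rose by 1.14 with PSPC1/PTK6 against mock and by 1.15 against PSPC1 (1.00 and 0.93 with length and GC taken out). WWC3, a scaffold of the KIBRA family, rose by 1.09 with PSPC1-Y523F against mock (0.94 with length and GC taken out). FRMD6, a membrane-proximal regulator, fell by 1.26 with PSPC1-CT131 (−0.88 with length and GC taken out) and by 1.01 with Mut-NLS-CT131. With 5 added to each FPKM, 4 of these 5 calls were lost, all but that of FRMD6 with PSPC1-CT131, and the FRMD6 call with Mut-NLS-CT131 held under 6 of 10 alternatives. The list's median ran from −0.31 to 0.25 over the 10 comparisons, and its −0.31 for PSPC1-CT131 against mock was −0.08 with length and GC taken out, where the median of all genes was 0.01.

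Of 15 regulators that bind YAP, TAZ or TEAD or act on them, VGLL3, a cofactor of TEAD proteins, was called in all 4 SK-hep1 comparisons with mock. VGLL3 was at 6.22 FPKM in mock, 19.1 with PSPC1, 23.0 with PSPC1/PTK6, 17.2 with PSPC1-Y523F and 28.5 with PSPC1-Y523F/PTK6, lowest in mock as TEAD2 was. It rose by 1.45, 1.48, 1.35 and 2.03 on the log2 scale, and it was under 1 FPKM in every Mahlavu and Huh-7 library. As for TEAD2, these 4 values rest on the same mock library and are not 4 separate observations. VGLL2, a paralogue, had 1 read in mock, 117 with PSPC1, 131 with PSPC1/PTK6, 37 with PSPC1-Y523F and 63 with PSPC1-Y523F/PTK6. The ratio of its reads per total to mock had counting intervals of 22.1 to 4995, 21 to 4733, 6.42 to 1542 and 9.73 to 2257, and of these 4 comparisons it passed the filter in the first 2 only, through the library where it was high. AMOTL1, an angiomotin-family relative of AMOTL2, fell by 1.13 with PSPC1 and 1.37 with PSPC1/PTK6. The VGLL2 and AMOTL1 calls were lost with 5 added (AMOTL1 then at −0.66 and −0.77) and with a mean of at least 5 FPKM, while those of VGLL3 held under all 10 alternatives. AMOT fell by 1.14 in Mut-NLS-CT131 against mock (−0.69 and not called with 5 added), and PTPN14, a phosphatase that binds YAP, fell by 1.26 in PSPC1/PTK6 against PSPC1. With PSPC1, 2 of the 14 kept were called higher and 1 lower, against 3.38% and 2.19% of all genes. With PSPC1/PTK6 the counts were 2 and 1 of the 13 kept, against 5.09% and 3.32%. No other comparison had more called in either direction. With HGF 0 of the 11 kept were called, against 0.428% higher and 0.393% lower of all genes. Such counts are too small to be set apart from such shares.

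Among the 19 targets, at most 3 were called higher and at most 2 lower in any comparison. In the SK-hep1 comparisons with mock, between 1.59% and 5.09% of all genes were called in a given direction, and counts this small are too few to be set apart from such shares. With PSPC1, TGFB2, a ligand of the TGF-beta family, rose by 1.37, and 1 target was called higher and 0 lower. With PSPC1/PTK6, 3 were called higher, led by TGFB2 at 1.48, and 1 lower, CCN2 at −1.44. CCN2 was at 38.1 FPKM in mock, 22.5 FPKM with PSPC1 alone and 15.2 FPKM with PSPC1/PTK6. It was at 31.3 and 25.1 FPKM with the mutant without and with PTK6, so of the SK-hep1 libraries it was highest in mock. Among the same libraries ANKRD1 was highest with PSPC1/PTK6. CCN1 differed from mock by 0.74, 0.34, −0.13 and −0.07 in the order of the constructs and was not called. With PSPC1-Y523F, 2 targets were called higher and 0 lower, led by IGFBP3, which binds insulin-like growth factors, at 1.48, and with PSPC1-Y523F/PTK6 IGFBP3 alone, at 1.57. The target medians in these 4 comparisons were 0.37, 0.28, 0.30 and −0.06, beside −0.03, −0.04, −0.01 and −0.04 for all genes.

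In PSPC1/PTK6 against PSPC1, NT5E rose by 1.07 (0.93 and not called with TMM-scaled counts) and PTPN14, which this list also holds, fell by 1.26. In PSPC1-Y523F/PTK6 against PSPC1-Y523F, CRIM1, a transmembrane protein, fell by 1.03 (−0.90 and not called with TMM-scaled counts). All-gene shares were 3.09% higher and 1.87% lower in the first pair and 3.78% and 2.2% in the second. In Mahlavu, CCDC80, a matrix protein, was the 1 target called against mock with PSPC1-CT131, at −1.49. With Mut-NLS-CT131, GADD45A, a stress-response gene, rose by 1.06 (called under 7 of 10 alternatives) and F3, the coagulation tissue factor, fell by 1.26, 1 of 2 targets called lower. Between PSPC1-CT131 and Mut-NLS-CT131, 2 targets were called higher, led by F3 at 1.14 (called under 7 of 10 alternatives, the other under 5 of 10), and 0 of the 18 kept were called lower, unlike ANKRD1. All-gene shares were 3.17% higher and 3.16% lower for PSPC1-CT131 against mock, 3.16% and 3.26% for Mut-NLS-CT131 against mock and 4.23% and 4.59% between them. CCN1 and CCN2 differed by 0.01 and −0.65 for PSPC1-CT131 against mock, by 0.45 and −0.52 for Mut-NLS-CT131 against mock and by −0.44 and −0.13 between the constructs.

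The genes whose 7 changes against mock or untreated cells were closest to those of TEAD2 and ANKRD1 were looked up among 10125 genes kept in all 7. For TEAD2 they were NFKBID, NEIL1 and ABCA7, with a root mean square difference of 0.23, 0.25 and 0.27 on the log2 scale. For ANKRD1 they were EEA1, NFYB and ADD3, at 0.33, 0.34 and 0.36, and against mock with PSPC1-CT131 these 3 stood at −1.48, −1.61 and −1.78. The genes were picked on these same changes, so the falls with PSPC1-CT131 follow from the choice. No fit of length and GC content was subtracted from them. The likeness is a description over 7 comparisons that share their mock libraries.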

How the data were processed

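RNA-Seq of 10 libraries was read from tables of 58302 genes. For SK-hep1 and Mahlavu the authors deposited the read count per gene without normalization and FPKM, and for Huh-7 the authors deposited FPKM only, from which whole reads came out for 100% of values (tolerance 0.01 of a read) using the 1 length per gene behind the other tables. The submitters' processing notes name TopHat2 2.0, HTSeq 0.6.1, edgeR and GRCh38.p12, with no role stated. The paper names hg18, but the positions of all 10 members are those of GENCODE 29 on GRCh38. The labels describe poly-T selection and the paper rRNA depletion. Symbols were matched for 57532 genes, and 8 lines without a gene were left out.

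Conditions were taken from the labels. FPKM were quantile normalized once for the 8 libraries of SK-hep1 and Mahlavu and once for both Huh-7 libraries, where the paper describes a single normalization of all samples, tried as an alternative added after the data were seen (numpy 2.4.6, pandas 2.3.3, Python 3.11.15). A gene was kept where its mean over both libraries reached 1 FPKM and called where FPKM + 1 changed 2-fold or more. Levels carry 95% Wilson intervals and read ratios exact conditional binomial intervals (scipy 1.17.1). Reads have no molecular identifiers, so both cover counting error only. Lines were compared on FPKM as deposited, by whether their libraries overlap. The libraries of a line differ in construct and are not replicates. TMM factors came from edgeR 4.0.16. Quantile normalization with the 2-fold calls, and the read-ratio intervals, were tried on simulated libraries with counting error only. The other steps were not tried in this way.

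The members and lists were chosen with earlier results of these data known. The text names all members, CCN1 and CCN2, the largest called rise and fall of each list per comparison, the 3 genes most like each called member, and PSPC1 and PTK6, apart from genes said to be picked later.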

Additional observations from a re-analysis of the deposited data

Results flagged for a closer look

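In reads per total, LATS1 differed in opposite directions when PTK6 was added to PSPC1 and to PSPC1-Y523F. The sign of the first difference depended on the processing. LATS1 had more reads per total with PSPC1/PTK6 than with PSPC1 (counting interval of the ratio 1.24 to 1.83, 304 against 171 reads). It had fewer with PSPC1-Y523F/PTK6 than with PSPC1-Y523F (0.594 to 0.894, 178 against 212 reads). The log2 changes were 0.08 and −0.32, a difference of 0.40, and the first was −0.03 after a fit of length and GC content was subtracted. Over 9 alternatives the first ran from −0.03 to 0.48. On FPKM as deposited the median of all genes in that pair was itself 0.20. The difference was not tested, since each condition had 1 library.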

How the results depend on the processing

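Each comparison was recomputed with 0.1 or 5 added to FPKM, on FPKM as deposited, on FPKM scaled to a common sum, with quantile normalization within each line, without a filter, with a mean of at least 5 FPKM, on TMM-scaled counts (not for Huh-7) and after subtracting a fit of length and GC content. Normalization over all 10 libraries together, added after the data were seen, changed no count of members called between 2 libraries. The number of members called went from 1 to 2 for PSPC1 against mock (0.1 added, normalization within each line, TMM), as TEAD3 joined TEAD2. It went from 1 to 0 (5 added) or 2 (FPKM as deposited, scaled FPKM, TMM, length and GC) for PSPC1/PTK6 against mock, from 1 to 2 for PSPC1-CT131 against mock (FPKM as deposited, scaled FPKM), as TEAD1 joined ANKRD1, from 1 to 0 for PSPC1/PTK6 against PSPC1 (5 added, TMM, length and GC) and from 0 to 1 for PSPC1-Y523F/PTK6 against PSPC1-Y523F (TMM). Asking for a 2-fold gap took the members not overlapping between lines from 5 to 2, 8 to 5 and 7 to 3. The cause was not tested. Of the members' counts, 97 stayed and 17 moved, of their log2 changes 833 and 148, and of the counts of the other lists 248 and 49.

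On FPKM as deposited the median of all genes was 0.15 for PSPC1/PTK6 against mock, 0.20 for PSPC1/PTK6 against PSPC1, −0.24 for PSPC1-CT131 against mock and −0.13 for PSPC1-CT131 against Mut-NLS-CT131, and the share of calls that were higher went from 60.5% to 80.7%, from 62.3% to 83.9%, from 50.1% to 16.3% and from 48% to 23.8%. No replicate could be left out and no paired analysis was possible because each condition had 1 library. LATS1, with 171 to 306 reads in SK-hep1 and Mahlavu, had the fewest reads there.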
